A study of Mus musculus with 16 samples.

Results

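The comparison set 8 libraries of irradiated mouse melanoma tumours, 4 given 5 Gy and QH-II-066 and 4 given 5 Gy alone, against 8 libraries of unirradiated tumours, 4 given QH-II-066 alone and 4 untreated. The 8 irradiated and 8 unirradiated libraries are all 16 of the series, and the drug entered as a second factor, so that the fold change of each gene is the effect of radiation averaged over tumours with and without the drug. The tumours were B16F10-GP, a line of the pigmented B16F10 melanoma, grown in 25% matrigel on the flanks of female C57BL/6 mice 6 to 8 weeks old. A single 5 Gy dose of X-rays was given to the right flank on day 10, and QH-II-066 was injected into the peritoneum at 10 mg/kg daily for 7 days from day 10. QH-II-066 is named in the series as the Drug, in a study of GABA-A receptor enhancement. The untreated libraries are labelled as untreated, while the protocol describes a vehicle control. Every mouse therefore carried the same tumour line, and the libraries are labelled by radiation and drug. The labels do not say from which flank each profiled tumour came, when it was taken, or whether each library of a group had its own mouse, and p-values measure the spread between these libraries, which may be partly technical.

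Ionising radiation breaks DNA, and in cells with working p53 this induces genes such as Cdkn1a, which halts the cell cycle, and Mdm2, which marks p53 for degradation. A tumour also holds host cells: fibroblasts, which make the collagen matrix, vessels, and macrophages, which clear dead cells and remodel tissue. A tumour under the skin lies beside epidermis, fat and muscle, whose transcripts can be collected with it. RNA was captured with probes for the transcriptome and sequenced, and 16101 of 46078 listed genes had enough reads to be tested. Total counts were 6994198 to 40799942 in irradiated libraries and 23035634 to 38114306 in unirradiated libraries. Levels below are CPM, counts normalised to library size after scaling for library composition, and a gene is called where the adjusted p of edgeR's quasi-likelihood test is under 0.05.

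Irradiated tumours had higher levels of 135 genes, 0.838% of those tested, and lower levels of 0 genes. At an unadjusted p under 0.05, 1368 genes were higher (8.5%) and 334 lower (2.07%), and DESeq2 called 680 higher and 3 lower. The higher genes were led by those of the keratinising epidermis, among them the keratin Krt10, the secreted epidermal proteins Dmkn and Sbsn, and the desmosome proteins Dsp, Perp and Pkp3. A smaller group had modest changes: Kif26b, P3h4, Slfn4, Sgk1, Ctsk and Stab1 rose by 0.79 to 1.14 on the log2 scale. The called genes sat close to the threshold, with adjusted p between 0.0355 and 0.0491. With any 1 of 11 libraries left out (5 Gy replicates 2 and 4, replicate 4 of 5 Gy + QH-II-066, and each of the 8 unirradiated libraries) no gene was called, the smallest adjusted p then being 0.0595 to 0.125. With any 1 of the other 5 left out, 149 to 229 genes were higher.

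Genes of the epidermis had the highest fold changes among the named genes. The score of the skin epithelium list, the mean log2 CPM of its 19 tested markers of keratinocytes (of 20), was -2.40 at its lowest, 3.97 at its median and 7.12 at its highest in irradiated libraries, against -2.82, -2.72 and -1.28 in unirradiated libraries. It was above 0 in 5 libraries, all irradiated: 5 Gy replicates 2 and 4, and replicates 2, 3 and 4 of 5 Gy + QH-II-066. These 5 are named the libraries with skin transcripts, although such transcripts were counted at low levels elsewhere. The other 3 irradiated libraries had scores of -2.40, -2.37 and -0.81, the last, of replicate 1 of 5 Gy + QH-II-066, being above that of every unirradiated library. Of the 19 tested markers 10 were called higher and all 19 had a fold change above 0, with a median of 9.44 on the log2 scale; over all tested genes the median was -0.05. The median is 9.44 also with the 7 markers that had no read in any unirradiated library set at the limit that 3 counts over the 8 libraries allow.

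**Figure D1:**
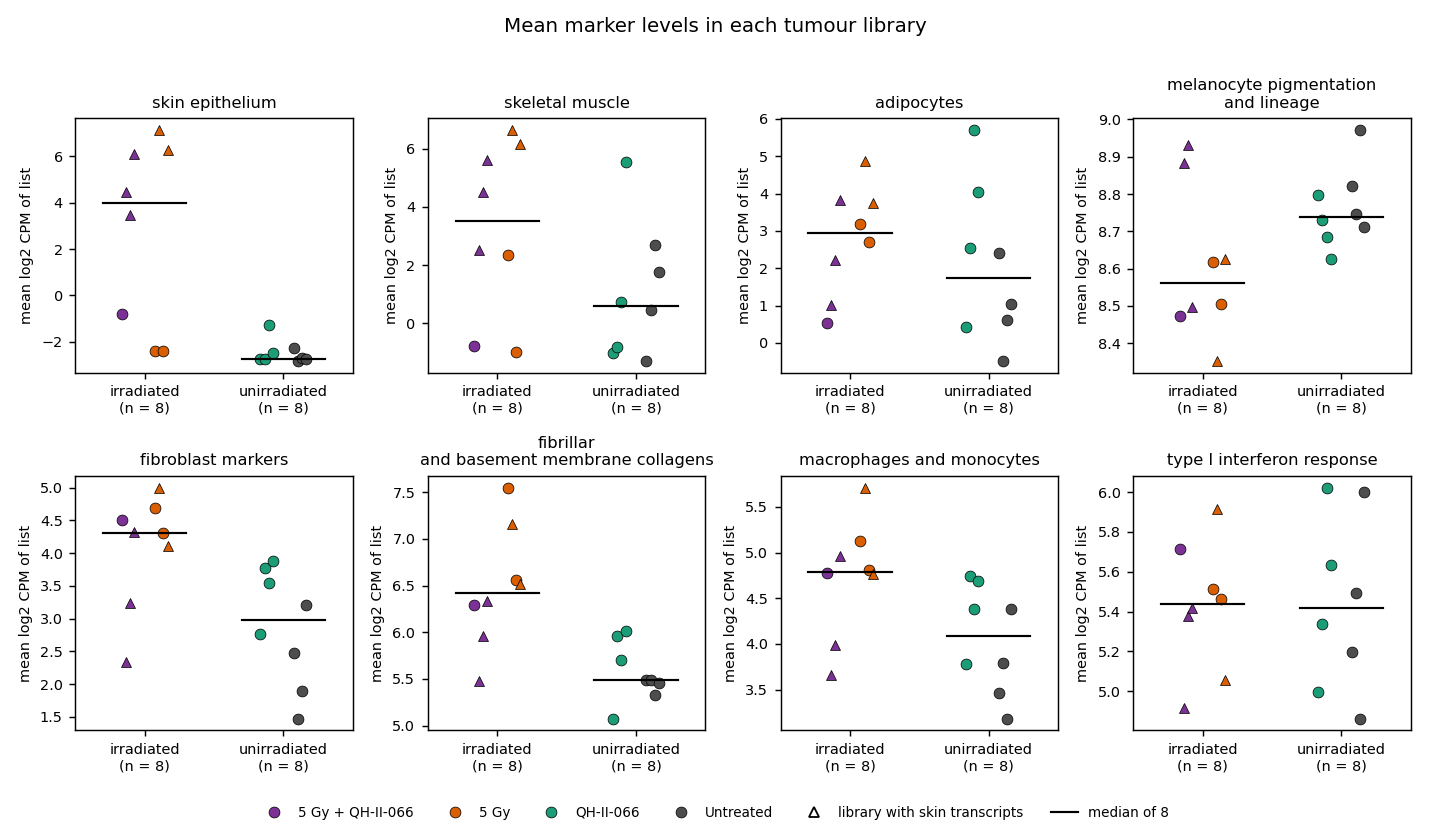
Mean log2 CPM of 8 gene lists in each library, irradiated libraries on the left and unirradiated on the right; colours are the 4 groups, triangles the 5 libraries with skin transcripts, and bars the medians of 8. The skin epithelium score is high in 5 irradiated libraries, the fibroblast score of 6 irradiated libraries lies above all unirradiated ones, and the melanocyte score of 6 irradiated libraries lies below all unirradiated ones.

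Krt10, the keratin of the suprabasal epidermis, had 0.27, 80.0 and 693 CPM as its lowest, median and highest value in irradiated libraries, and 0, 0.168 and 0.372 CPM in unirradiated libraries. Its log2 fold change was 10.08 ± 1.72 (SE, adjusted p = 0.0355). The 5 libraries with skin transcripts had 57.0 to 693 CPM, replicate 1 of 5 Gy + QH-II-066 had 2.24 CPM, and 5 Gy replicates 1 and 3 overlapped with the unirradiated libraries. Without the 5 libraries Krt10 was at 2.38 ± 0.59 and not called (adjusted p = 0.217). Krt5, the keratin of basal keratinocytes, had 0.101, 109 and 799.6 CPM in irradiated libraries and 0, 0 and 1.98 CPM in unirradiated libraries, a log2 fold change of 9.71 ± 1.91 (adjusted p = 0.0369).

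Perp, a desmosome protein that is also a p53 target, had 0.439, 49.97 and 319 CPM in irradiated libraries and 0.50, 0.767 and 1.17 CPM in unirradiated libraries. The log2 fold change was 6.74 ± 1.27 (adjusted p = 0.0355), and 0.14 ± 0.38 without the libraries with skin transcripts (adjusted p = 0.971). Dsp, the plakin that ties desmosomes to keratin filaments, was at 6.10 ± 1.24 (adjusted p = 0.0414) over all libraries and at -0.39 ± 0.49 without those 5 (adjusted p = 0.919). Scel, a precursor protein of the cornified envelope, was at 3.53 ± 0.76 (adjusted p = 0.0441) and at -0.07 ± 0.33 (adjusted p = 0.983), and neither gene passed the test in the fit without them. Other called genes were Sfn, the 14-3-3 sigma protein of keratinocytes, at 3.98 ± 0.85, the fatty acid elongase Elovl4 at 4.40 ± 0.86, Susd2 at 3.08 ± 0.66, and the epidermal galectin Lgals7 at 2.81 ± 0.58, with adjusted p of 0.0449, 0.036, 0.0429 and 0.0414. The families behind these names, grouped after the values were seen, were these: 8 of 17 tested keratins, 4 of 8 kallikrein-related peptidases, 3 of 4 transglutaminases and 2 of 4 plakophilins were called, as were 2 of 6 beta connexins, 2 of 9 claudins, 4 of 29 serpins and 2 of 40 collagen chains, where 0.838% of all tested genes were. Keratins resemble each other in sequence, and how the counting divided reads between them is uncertain.

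Sbsn and Dmkn are called genes that lie near each other on chromosome 7 and were high in the same libraries, so their promoters are shown. Both windows run from 250 bases before to 50 after a RefSeq start on the plus strand of GRCm38.p6, 5′ to 3′, at chr7:30751221-30751520 for Sbsn and chr7:30763506-30763805 for Dmkn. Dmkn has 3 such windows, and the first listed is shown. Capitals mark TGANTCA, where N is any base, a loose form of the core motif of AP-1, a factor of the Fos and Jun proteins. As a pattern it reads the same on both strands.
Sbsn: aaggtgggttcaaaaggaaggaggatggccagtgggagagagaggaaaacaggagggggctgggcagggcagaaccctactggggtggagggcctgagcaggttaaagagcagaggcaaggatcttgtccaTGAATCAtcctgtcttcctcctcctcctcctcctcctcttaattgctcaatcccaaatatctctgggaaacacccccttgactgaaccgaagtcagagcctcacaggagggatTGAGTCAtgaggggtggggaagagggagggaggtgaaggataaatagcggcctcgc
Dmkn: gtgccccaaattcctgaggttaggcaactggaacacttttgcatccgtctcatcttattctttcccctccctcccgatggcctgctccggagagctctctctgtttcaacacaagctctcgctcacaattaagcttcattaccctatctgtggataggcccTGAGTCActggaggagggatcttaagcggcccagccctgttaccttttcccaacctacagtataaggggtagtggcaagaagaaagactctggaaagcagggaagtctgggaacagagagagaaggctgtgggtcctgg
The Sbsn window holds 2 matches and the Dmkn window 1, which starts 89 bases before the start used for that window. Of all 32851 RefSeq promoter windows of this length 7.81% hold the motif. Among genes with a window, 21 of 99 called genes (21.2%) hold it in at least 1 window, and 794 of 11624 tested genes (6.83%). The excess is not particular to this motif. The other motif counted, TATAAA, is held by 24 of 99 called genes (24.2%) and 1119 of 11624 tested genes (9.63%). A match describes the letters and is not a bound site. Sbsn had 3.34, 40.8 and 198 CPM in irradiated libraries and 1.76, 2.86 and 5.48 CPM in unirradiated libraries (log2 fold change 4.33 ± 0.83, adjusted p = 0.0355). Dmkn had 0.32, 60.1 and 324 CPM in irradiated libraries and 0, 0.147 and 0.768 CPM in unirradiated libraries (8.77 ± 1.495, adjusted p = 0.0355). For both genes 6 of 8 irradiated libraries lay above all unirradiated ones.

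The 5 libraries with skin transcripts carried most of the called genes. In 104 of the 135 the median of those 5 libraries was more than 10-fold above the median of the other 3 irradiated ones, and in 57 the unirradiated median was 0. When the other 3 irradiated libraries (5 Gy replicates 1 and 3 and replicate 1 of 5 Gy + QH-II-066) were set against the same 8 unirradiated ones, edgeR called 0 genes. At an unadjusted p under 0.05, 805 were higher (5%) and 323 lower (2.01%). Of the 135 genes 105 kept a fold change above 0 and 35 had an unadjusted p under 0.05, and their median log2 fold change was 0.88, against 6.04 with all libraries. The skin list itself kept a median of 0.86 there, with 7 of 19 markers higher at an unadjusted p under 0.05 and 0 called. The score of this list chose the libraries left out, so the values of the list there are partly set by that choice. The same holds for the 104 of 135 genes, as 10 of the 135 are members of the list. That fit has fewer libraries, and a call lost to fewer libraries and a call lost with the skin transcripts cannot be told apart.

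**Figure D2:**
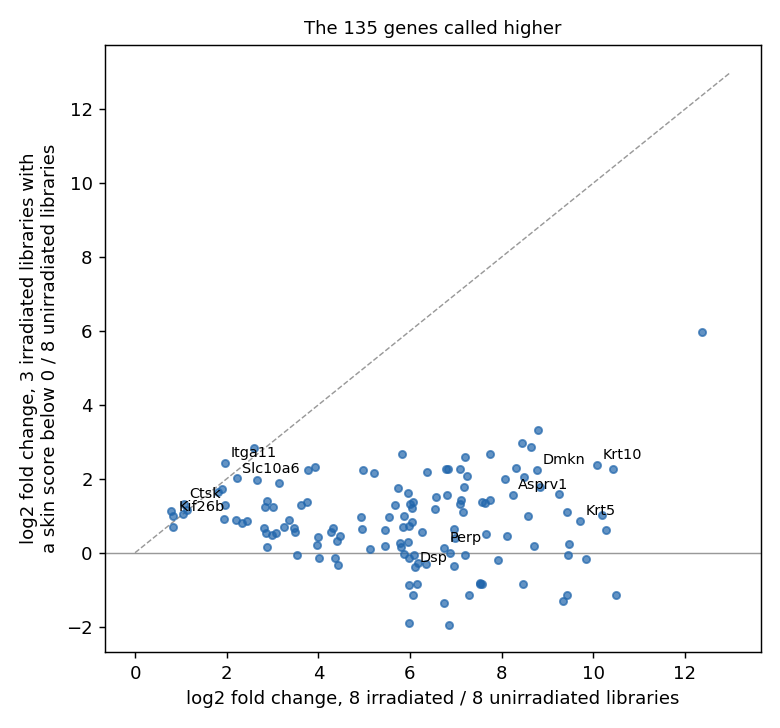
Log2 fold change of the 135 called genes over all 16 libraries (x axis) and over the 3 irradiated libraries with a skin score below 0 and the 8 unirradiated ones (y axis); each point is a gene, the dashed line marks equal values. Krt10, Krt5, Perp and Dsp lie far below the line, while Kif26b, Ctsk and Itga11 lie on or above it.

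Markers of muscle and fat, the other tissues around a tumour under the skin, varied widely. The skeletal muscle score was -0.9996, 3.52 and 6.65 in irradiated libraries and -1.30, 0.59 and 5.54 in unirradiated libraries, and 0 of 19 tested markers were called. Its median log2 fold change was 2.34 with all 19 above 0, and -0.96 without the libraries with skin transcripts. Those libraries had muscle scores of 2.53 to 6.65, and the other irradiated ones -0.9996 to 2.33. Leaving them out thus also removed muscle transcripts. Ckm, the creatine kinase of muscle, was at 2.46 ± 1.80 (adjusted p = 0.679). The adipocyte score was 0.52, 2.95 and 4.88 in irradiated libraries and -0.49, 1.73 and 5.70 in unirradiated libraries, with 0 of 15 markers called. Adipoq, the hormone adiponectin of fat cells, was at -0.50 ± 1.88 (adjusted p = 0.951). Both scores overlapped between the groups. With the muscle score as a covariate edgeR called 0 genes higher. With the adipocyte score it called 115, of which 76 were also called in the main fit. How far these tissues account for the results below was not tested further. In bulk tumours, fewer or more cells of a type and less or more RNA per cell cannot be told apart.

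Among the called genes with lower skin dependence, Kif26b, a kinesin family protein, had 4.04, 5.19 and 8.15 CPM in irradiated libraries and 2.81, 3.17 and 3.90 CPM in unirradiated libraries. All 8 irradiated libraries lay above all 8 unirradiated ones, and the log2 fold change was 0.82 ± 0.17 (adjusted p = 0.036). It was 0.67 in 5 Gy + QH-II-066 against QH-II-066 tumours, 0.98 in 5 Gy against untreated tumours, and 0.99 ± 0.20 without the libraries with skin transcripts (adjusted p = 0.131). P3h4, a partner of the enzymes that modify collagen lysines, also did not overlap, with 2.43, 2.96 and 4.20 CPM in irradiated libraries and 0.831, 1.30 and 2.37 CPM in unirradiated libraries. Its log2 fold change was 1.14 ± 0.24 (adjusted p = 0.0414), and 1.17 ± 0.28 without the libraries with skin transcripts (adjusted p = 0.214). P3h4 was at 0.66 in the tumours with drug and 1.62 in those without it. Most irradiated libraries in the fit without skin transcripts had no drug, so its values lean on the arm without drug.

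Slfn4, a Schlafen family gene of myeloid cells, had 3.12, 4.44 and 5.71 CPM in irradiated libraries and 1.29, 1.84 and 3.17 CPM in unirradiated libraries. The lowest irradiated library fell just below the highest unirradiated one, and the other 7 lay above all. The fold change was 1.05 ± 0.22 on the log2 scale (adjusted p = 0.0414), with 0.95 in the tumours with drug and 1.15 in those without it. Sgk1, a kinase induced by serum and glucocorticoids, had 12.5, 17.9 and 29.7 CPM in irradiated libraries and 7.64, 11.2 and 14.3 CPM in unirradiated libraries, a log2 fold change of 0.83 ± 0.17 (adjusted p = 0.0378). Stab1, the scavenger receptor stabilin-1 of macrophages and sinusoidal endothelium, had 37.5, 54.1 and 89.3 CPM in irradiated libraries and 26.7, 31.3 and 46.7 CPM in unirradiated libraries, at 0.79 ± 0.17 (adjusted p = 0.0431). For Stab1 5 of 8 irradiated libraries, and for Sgk1 7 of 8, lay above all unirradiated ones. Without the libraries with skin transcripts Sgk1 was at 0.70 ± 0.18 (adjusted p = 0.253), Slfn4 at 1.04 ± 0.30 (adjusted p = 0.34) and Stab1 at 1.13 ± 0.19 (adjusted p = 0.10). Sgk1 was at 0.54 in the tumours with drug and 1.12 in those without it, and Stab1 at 0.41 and 1.17.

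Genes in matrix and cell contact followed. Ctsk, cathepsin K, a protease that cleaves collagen, had 14.1, 19.5 and 33.2 CPM in irradiated libraries and 6.46, 10.0 and 17.3 CPM in unirradiated libraries. The log2 fold change was 1.06 ± 0.23 (adjusted p = 0.044) and 1.32 ± 0.19 without the libraries with skin transcripts (adjusted p = 0.10), and 6 of 8 irradiated libraries lay above all unirradiated ones. Smoc2, a calcium-binding matrix protein, had 2.51, 7.98 and 23.4 CPM in irradiated libraries and 1.22, 2.51 and 4.99 CPM in unirradiated libraries, at 1.90 ± 0.42 (adjusted p = 0.0456) and 1.72 ± 0.28 without those libraries (adjusted p = 0.10). Col7a1, the collagen of the fibrils that anchor epidermis to dermis, had 2.06, 6.76 and 15.3 CPM in irradiated libraries and 1.05, 2.02 and 2.49 CPM in unirradiated libraries. Its log2 fold change was 1.95 ± 0.38 (adjusted p = 0.0355), and 0.91 ± 0.33 without the libraries with skin transcripts (adjusted p = 0.527). Ptk7, a receptor-like protein of planar cell polarity, was at 2.19 ± 0.45 (adjusted p = 0.0369) and 0.88 ± 0.32 without them (adjusted p = 0.55). Ctsk was at 0.52 in the tumours with drug and 1.61 in those without it, and Smoc2 at 1.08 and 2.72. Ptk7 was at 1.75 with drug and 2.62 without it, and Col7a1 at 1.95 and 1.94.

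**Figure D3:**
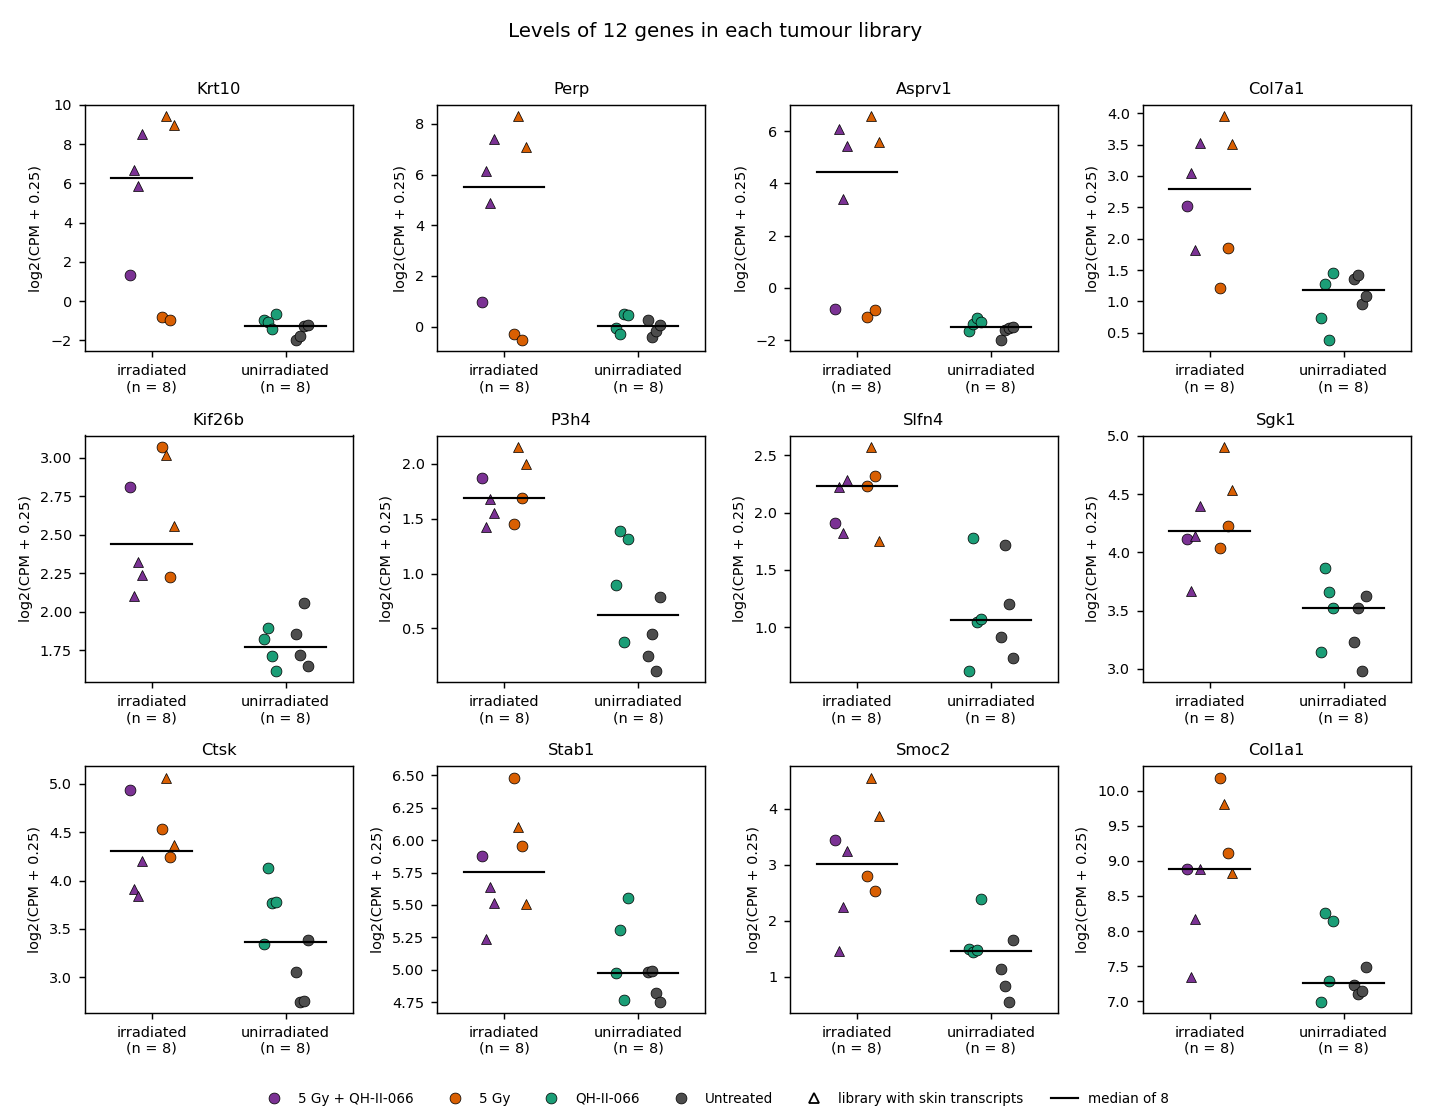
Level of 12 genes in each library as log2(CPM + 0.25), irradiated libraries on the left and unirradiated on the right; colours are the 4 groups, triangles the libraries with skin transcripts, and bars the medians of 8. Krt10, Perp and Asprv1 are high where skin transcripts are, while the 8 irradiated libraries of Kif26b and P3h4 lie above all 8 unirradiated ones, circles and triangles alike.

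In 14 genes (0.087% of those tested) all irradiated libraries were above all unirradiated ones, and in 1 gene (0.00621%) all were below. Beside Kif26b and P3h4, 9 of these 15 genes were called; apart from those 2, the genes without overlap were chosen after their values were seen. Asprv1, a protease of the upper epidermis, had 0.214, 26.7 and 95.7 CPM in irradiated libraries and 0, 0.101 and 0.202 CPM in unirradiated libraries (log2 fold change 8.24 ± 1.42, adjusted p = 0.0355). Tgm1, which crosslinks the cornified envelope, was at 3.01 ± 0.55. Cldn23, Serpinb12 and Ephx3 were at 5.83 ± 1.08, 4.97 ± 0.97 and 2.83 ± 0.57. For Cldn23 the lowest irradiated library had 0.0338 CPM and the highest unirradiated one 0.0334 CPM, both below the level of 3 counts. For Serpinb12 these values were 0.108 and 0.106 CPM, and for Ephx3 0.487 and 0.468 CPM. At gaps this small, the lack of overlap of these genes cannot be told from counting error. Grem1, a secreted antagonist of bone morphogenetic proteins, had 0.806, 2.14 and 7.71 CPM in irradiated libraries and 0, 0.29 and 0.538 CPM in unirradiated libraries (3.13 ± 0.58, adjusted p = 0.0355). Slc10a6, a transporter of steroid sulfates, had 0.441, 0.979 and 1.64 CPM in irradiated libraries and 0.0959, 0.163 and 0.422 CPM in unirradiated libraries, at 2.23 ± 0.40 (adjusted p = 0.0355) and 2.01 ± 0.46 without the libraries with skin transcripts (adjusted p = 0.189). Without those libraries Asprv1 was at 1.57 ± 0.58, Tgm1 at 1.23 ± 0.37, Cldn23 at 2.67 ± 0.94, Serpinb12 at 2.25 ± 0.91, Ephx3 at 1.23 ± 0.44 and Grem1 at 1.89 ± 0.61, none of them called (adjusted p from 0.389 to 0.639). Itga11, a collagen-binding integrin subunit of fibroblasts, was at 1.97 ± 0.44 and, without those libraries, 2.44 ± 0.47, and Tpbg at 1.81 ± 0.40 and 1.64 ± 0.42.

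The remaining 4 genes without overlap were not called. Fgf7, the keratinocyte growth factor made by fibroblasts, had 2.49, 3.29 and 5.55 CPM in irradiated libraries and 1.38, 2.05 and 2.43 CPM in unirradiated libraries (0.84 ± 0.20, adjusted p = 0.0675). Egr2, an immediate early transcription factor, had 3.88, 5.11 and 16.8 CPM in irradiated libraries and 2.17, 3.16 and 3.77 CPM in unirradiated libraries (1.09 ± 0.29, adjusted p = 0.0916, and 0.68 ± 0.22 without the libraries with skin transcripts). Clip3 was at 1.496 ± 0.39 (adjusted p = 0.0868). Nup54, a channel protein of the nuclear pore, was the gene with lower values, at 22.5, 32.8 and 35.0 CPM in irradiated libraries and 35.7, 36.2 and 37.7 CPM in unirradiated libraries. Its log2 fold change was -0.20 ± 0.08 (adjusted p = 0.315), and its lowest value, in replicate 4 of 5 Gy + QH-II-066, stood apart from the other 7. With library totals in place of the composition scaling, 12 genes were above and 0 below.

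Genes of the collagen matrix lay above 0 as a group without passing the test of the main effect. All 17 fibrillar and basement membrane collagens had a fold change above 0, where 39.7% of all tested genes did, with a median of 0.99 against -0.05; 0 of 17 were called and 15 had an unadjusted p under 0.05. Col1a1, the main chain of type I collagen, had 162, 471 and 1166 CPM in irradiated libraries and 127, 153 and 306 CPM in unirradiated libraries. The log2 fold change was 1.504 ± 0.34 and just missed the threshold (adjusted p = 0.0509), and 6 of 8 irradiated libraries lay above all unirradiated ones. Col3a1, of type III collagen, was at 1.41 ± 0.42 (adjusted p = 0.139), Col5a1 at 1.18 ± 0.28 (adjusted p = 0.0675) and Col6a3 at 1.03 ± 0.25 (adjusted p = 0.0678).

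The fibroblast markers had a median of 1.12, with 14 of 14 above 0 and 0 called. Pdgfra, a growth factor receptor of fibroblasts, had 3.92, 14.9 and 30.2 CPM in irradiated libraries and 2.65, 4.07 and 7.61 CPM in unirradiated libraries (1.595 ± 0.40, adjusted p = 0.072). The proteoglycans and matrix glycoproteins had a median of 1.02, with 17 of 20 above 0 and 0 called, among them tenascin-C (Tnc) at 1.06 ± 0.26 (adjusted p = 0.0706). Of the metalloproteases and their inhibitors 16 of 17 were above 0 with a median of 0.73, and 1, Ctsk, was called. Mmp3 at 1.53 ± 0.35 (adjusted p = 0.0501) and the gelatinase Mmp2 at 1.14 ± 0.27 (adjusted p = 0.0644) came next. Without the libraries with skin transcripts the medians were 1.25 for collagens, 1.70 for fibroblast markers, 1.57 for proteoglycans and 0.83 for metalloproteases, with 0 members called; of the 3 irradiated libraries in that fit 2 had no drug. Of the 11 secreted Wnt antagonists 8 were tested and 1, Sostdc1, was called (5.13 ± 1.15, adjusted p = 0.0475), and it was at 0.11 ± 0.86 without those libraries (adjusted p = 0.991). The activin-binding protein Fst was at 2.09 ± 0.65 (adjusted p = 0.151) and the activin subunit Inhba at 1.496 ± 0.43 (adjusted p = 0.119), in a list of 19 with 0 called and a median of 0.33.

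The macrophage and monocyte list had all 22 members above 0, a median of 0.64 and 0 called. Cd163, a scavenger receptor of tissue macrophages, had 2.59, 12.6 and 42.7 CPM in irradiated libraries and 1.15, 2.21 and 4.78 CPM in unirradiated libraries. The 4 libraries of 5 Gy and replicate 4 of 5 Gy + QH-II-066 lay above all unirradiated ones and the other 3 did not, and the log2 fold change was 2.21 ± 0.56 (adjusted p = 0.0787). Mrc1, the mannose receptor, had 25.7, 72.6 and 128 CPM in irradiated libraries and 19.9, 25.0 and 51.6 CPM in unirradiated libraries (1.13 ± 0.34, adjusted p = 0.13). Lyz2, lysozyme of myeloid cells, was at 0.81 ± 0.22 (adjusted p = 0.106). Cxcl12, the chemokine of stromal cells, was at 1.11 ± 0.34 (adjusted p = 0.146); 20 of 24 tested chemokines were above 0 with a median of 0.41, and 0 were called.

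Neutrophil genes had a median of 0.80, with 9 of 10 tested above 0 and 0 called. S100a8 and S100a9, which form the calprotectin of neutrophils and inflamed epidermis, were at 2.54 ± 0.88 and 2.48 ± 0.83 (adjusted p = 0.226 and 0.205), with their highest values in 1 library, replicate 2 of 5 Gy + QH-II-066. The complement list had a median of 0.59 and 0 of 17 called. Vessel lists were smaller, with medians of 0.66 for smooth muscle and pericytes and 0.30 for endothelial cells, and 0 called in each; Acta2, the actin of smooth muscle, was at 0.69 ± 0.23 (adjusted p = 0.19).

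T cell genes had no called member. The 16 T cell markers had a median of 0.26 and the 15 genes of cytotoxic lymphocytes a median of 0.10. Cd8a, the coreceptor of cytotoxic T cells, had 3.81, 7.26 and 15.5 CPM in irradiated libraries and 4.71, 7.35 and 9.77 CPM in unirradiated libraries (0.04 ± 0.28, adjusted p = 0.976). Gzmb, the granzyme released by killer cells, was at -0.41 ± 0.31 (adjusted p = 0.68), Ifng, interferon gamma, at 0.49 ± 0.37 (adjusted p = 0.687) and Foxp3, the factor of regulatory T cells, at 0.92 ± 0.50 (adjusted p = 0.566). The groups overlapped for each of these genes. Genes induced by interferons had medians of -0.07 for both the type I list (22 genes) and the interferon gamma list (20 genes), and those of antigen presentation -0.10 for class I and -0.16 for class II, with 0 called in all 4. Ido1, which degrades tryptophan, had the lowest value of these lists at -2.003 ± 0.73 (adjusted p = 0.266) with 0, 0.196 and 0.909 CPM in irradiated libraries and 0.297, 0.60 and 6.03 CPM in unirradiated libraries.

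The genes of the radiation response in tumour cells lay close to 0. Cdkn1a had 167, 184 and 246 CPM in irradiated libraries and 179, 188 and 214 CPM in unirradiated libraries, a log2 fold change of -0.04 ± 0.08 (adjusted p = 0.896). Mdm2 had 39.6, 52.5 and 57.8 CPM in irradiated libraries and 45.5, 52.7 and 62.2 CPM in unirradiated libraries, at -0.08 ± 0.09 (adjusted p = 0.788). The 28 p53 targets in the list, which need not hold every target, had a median of -0.02. Of these 13 were above 0 and 1 was called, Perp, which is also a member of the skin list. Eda2r, a death receptor of the p53 pathway, was at 1.48 ± 0.44 (adjusted p = 0.137) and at 0.54 ± 0.50 without the libraries with skin transcripts. The 27 genes of DNA damage signalling and repair had a median of -0.12 with 1 above 0, the 24 of mitosis -0.10 with 1 above 0, and the 28 of DNA replication -0.13 with 1 above 0; 0 were called in each. Mki67, the proliferation antigen Ki-67, had 279.7, 290.2 and 359 CPM in irradiated libraries and 272, 287 and 429 CPM in unirradiated libraries (-0.06 ± 0.09, adjusted p = 0.855).

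Of 19 genes of melanocyte pigmentation and lineage 1 was above 0, the median was -0.14 and 0 were called. Pmel, the protein of melanosome fibrils, had 3716, 4829 and 6135 CPM in irradiated libraries and 4632, 5024 and 6166 CPM in unirradiated libraries (-0.13 ± 0.10, adjusted p = 0.704). Rab38, which sorts pigment enzymes, was at -0.24 ± 0.10 (adjusted p = 0.329) and Tyr, tyrosinase, at -0.27 ± 0.15 (adjusted p = 0.565). The melanocyte score was 8.35, 8.56 and 8.93 in irradiated libraries and 8.63, 8.74 and 8.97 in unirradiated libraries, and 6 of 8 irradiated libraries lay below all unirradiated ones. Ribosomal proteins (median -0.14, 1 of 30 above 0), glycolysis and hypoxia (-0.16) and nuclear oxidative phosphorylation (-0.13) were as near 0, beside the median of -0.05 over all genes, and had 0 called. The immediate early genes had a median of 0.25, with 17 of 20 above 0 and 0 called; Klf4, which is also a factor of the epidermis, was at 1.83 ± 0.48 (adjusted p = 0.0887) and at 0.93 ± 0.38 without the libraries with skin transcripts.

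**Figure D4:**
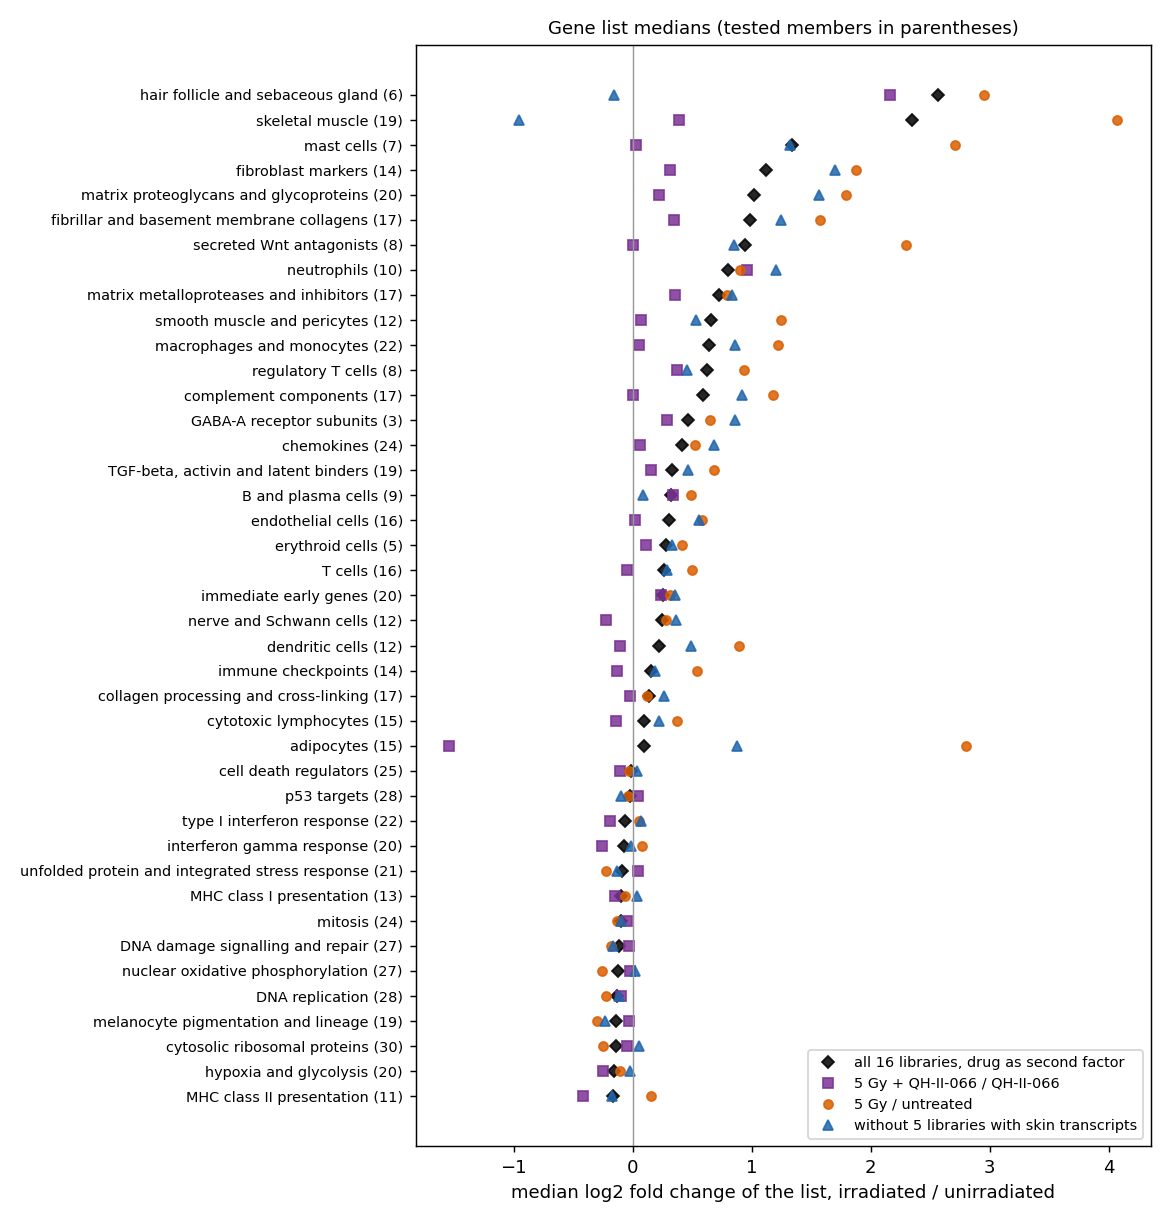
Median log2 fold change of 41 gene lists, irradiated over unirradiated (x axis), in all 16 libraries, in each arm, and without the libraries with skin transcripts; the skin epithelium list, at 9.44, lies beyond the axis and is left out. Matrix, fibroblast and macrophage lists have lower medians in 5 Gy + QH-II-066 over QH-II-066 than in 5 Gy over untreated, and the lists of pigmentation, mitosis, DNA replication and DNA repair lie between -0.30 and 0.

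The additive model assumes that the effect of radiation is the same with and without the drug, and the values of the arms can be set side by side because they share no library. The arm values here come from a joint fit of all 16 libraries, so the arms share its estimates of variance. In 5 Gy + QH-II-066 against QH-II-066 tumours edgeR called 0 genes, with 588 at an unadjusted p under 0.05 (3.65%), while in 5 Gy against untreated tumours 202 genes were higher (1.25%) and 1 lower (0.00621%). With only the 5 Gy and untreated libraries in the fit, 93 genes were higher, 2 of them among the 135. Libraries with skin transcripts were 3 of 4 in 5 Gy + QH-II-066 and 2 of 4 in 5 Gy. The sign was the same in both arms in 56.5% of tested genes. Of the 135 genes of the main effect the joint fit called 0 in the arm with drug and 10 in the arm without it. The median log2 fold changes of the 135 there were 5.21 and 6.85. The median of the collagens was 0.34 with drug and 1.58 without it, that of fibroblast markers 0.31 with drug and 1.88 without it, and that of macrophages 0.05 with drug and 1.22 without it. Without drug 11 of 17 collagens, 6 of 14 fibroblast markers and 4 of 22 macrophage genes were called higher, beside 1.25% of all genes. With drug 0 of each were called. Col1a1 was at 0.67 with drug and 2.33 without it, Cd163 at 0.81 with drug and 3.61 without it, and Mrc1 at 0.21 with drug and 2.05 without it. In edgeR each of these genes was called without drug (adjusted p = 0.0227) and not with drug (adjusted p = 0.9997). The adipocyte list had opposite signs, -1.54 with drug and 2.80 without it.

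The test of the difference between the arms, the interaction of radiation and drug, called 0 genes in edgeR, with 1121 at an unadjusted p under 0.05 (6.96%). DESeq2 called 61 and limma with sample weights 492, so whether genes differ between the arms depended on the test. In edgeR the interaction had an adjusted p of 0.498 for Col1a1, 0.481 for Cd163, 0.471 for Mrc1 and 0.471 for Cxcl12. Kif26b and Slfn4, with closer values in both arms, had 0.959 and 0.994, which does not show that they act alike. Of the 16 GABA-A receptor subunits 3 passed the filter on low counts, Gabra3, Gabrd and Gabrb1, with 0.0784, 1.25 and 2.68 CPM of Gabra3 in irradiated libraries and 0.0385, 0.361 and 1.27 CPM in unirradiated libraries (1.45 ± 0.64, adjusted p = 0.422). Gabrd was at 0.46 ± 0.36 (adjusted p = 0.692) and Gabrb1 at -0.23 ± 0.54 (adjusted p = 0.916).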

How the data were processed

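Per the labels' protocols, RNA from 16 tumours was sequenced by transcriptome capture. Per the file headers, the authors' deposited counts are read pairs per gene from featureCounts 1.6.0 with no strand option on an mm10 annotation; the submitters' processing notes also name STAR 2.4.1a and edgeR. Without strand, overlapping and antisense genes cannot be told apart. The counts were raw, 45143 of 46078 rows carried a symbol, the 37 mitochondrial genes had 0 counts, and no libraries were identical (within-group correlation 0.899 to 0.985). From these, edgeR 4.0.16 (R 4.3.3) filtered genes by group, scaled by TMM and fitted a robust quasi-likelihood model with radiation and drug; p-values were adjusted by Benjamini-Hochberg over 16101 genes and called under 0.05. The SE is the log2 fold change over the root of F. Levels at 0 counts are limited by depth: 3 counts equal 0.0735 to 0.429 CPM, for counting error only. List scores are means of log2 CPM with a prior count of 2. The script was tested on simulated data. DESeq2 1.42.0 and limma 3.58.1 were alternatives, with other scalings, filters, covariates, arms and libraries left out. Libraries with skin transcripts have a skin score above 0. Genes were named as the 10 highest and 10 lowest fold changes and 10 smallest p among called genes with mean log2 CPM of at least 1, up to 4 smallest-p members per list, and 16 fixed genes; exceptions are stated, and some genes the rule names are not reported here. The rule's part on genes also called without the libraries with skin transcripts named none. The members and the 42 lists (758 of 759 entries matched) were chosen with earlier results of these data known. Promoters are RefSeq sequences on GRCm38.p6, matched by symbol for 99 of 135 called genes.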

Additional observations from a re-analysis of the deposited data

Results flagged for a closer look

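Of 322 values checked (119 genes and 42 list scores in the 8 irradiated and the 8 unirradiated libraries), 15 (4.66%) had 1 library standing far from the other 7; chance gives about 1 in 20. In irradiated tumours the library that stood apart was 5 Gy replicate 3 for Cdkn1a, the cell cycle inhibitor, with 246 CPM as the highest value, and for the hypoxia and glycolysis score, 8.78, also the highest. 5 Gy replicate 1 was highest for Mki67 at 359 CPM. Replicate 2 of 5 Gy + QH-II-066 was highest for the calprotectin genes S100a8, at 33.8 CPM, and S100a9, at 37.5 CPM. Replicate 4 of 5 Gy + QH-II-066 was lowest for Xbp1, a factor of the unfolded protein response, at 101 CPM, and for Nup54 at 22.5 CPM.

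In unirradiated tumours untreated replicate 3 was lowest for Sfn at 1.06 CPM, and untreated replicate 2 for Ephx3 at 0.0769 CPM. QH-II-066 replicate 4 was highest for Fscn1, the fascin of mature dendritic cells, at 20.5 CPM, and QH-II-066 replicate 1 was lowest for the B cell receptor gene Cd22 at 1.25 CPM. QH-II-066 replicate 2 was highest for the neutrophil score at 1.06. QH-II-066 replicate 3 was highest for Krt79 at 0.162 CPM, Ivl at 0.121 CPM and the skin epithelium score at -1.28, a level below that of the 5 irradiated libraries with skin transcripts.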

How the results depend on the processing

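The count of 135 higher genes moved by over 1.5 times under most settings. It was 0 with limma-voom with sample weights, no filter on low counts, the stricter filter (CPM of at least 1 in 8 libraries), the libraries with QH-II-066 alone or after 5 Gy, no libraries with skin transcripts, and the skin, skeletal muscle and gene length covariates. It was 680 with DESeq2, 271 without the drug factor, 226 as the mean of both radiation effects and 308 at an adjusted p under 0.1. It was 138 with RLE scaling, 115 with the adipocyte covariate and 93 in the libraries without drug. Of lower genes there were 3 with DESeq2 (Tinagl1, Gm10639 and 2610002M06Rik), 1 with the skin covariate (Cldn8) and 1 at an adjusted p under 0.1 (Gm10639). The interaction called 61 genes with DESeq2, 492 with limma-voom and 1 with the skin covariate (Chl1). Leaving out each library gave 0 to 229 higher, 0 lower and 0 interaction genes. The cause of these moves was not tested, except that fits on fewer libraries or arms also have fewer samples.

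In settings added after seeing the data, the genes without overlap were 12 higher and 0 lower with library totals, 14 and 1 with RLE, 223 and 74 without the libraries with skin transcripts, where 3 libraries face 8, and 14 to 27 higher and 1 to 4 lower with each library left out. With the skin covariate 8 called genes had values below 0, none called: Perp (-0.55), Dsp (-0.88), Elovl4 (-0.11), Sfn (-0.34), Scel (-0.54), Krt5 (-0.14), Sostdc1 (-0.18) and Krt79 (-0.53). Without the libraries with skin transcripts so had Dsp (-0.39) and Scel (-0.075), each less than its SE from 0. The skin covariate is the score of the skin list, of which at least Perp, Krt5 and Krt79 are themselves members. Only irradiated libraries had scores above 0. That fit therefore cannot part skin transcripts from radiation, and low values of epidermal genes were built into it. Of 1043 values of the 33 named called genes 358 kept their call and 675 lost it in the same direction; of 2740 values of the 86 others 152 were called. RLE scaling moved 0 of 42 list medians, and leaving out the libraries with skin transcripts 5, by more than the spread between replicates. With the replicate number as a block 102 genes were higher, 82 of them among the 135, 0 lower, and the interaction called 0. Same-numbered libraries of different groups had correlations of deviations from -0.43 to 0.48 over 24 pairs, with a median of 0.10. Pairs with different numbers had -0.67 to 0.69 over 72 pairs, with a median of -0.04. The labels do not say that the numbers pair the samples, and ranges this wide cannot decide it. The shallowest library, with 6994198 counts, limits what could be seen in low genes.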

Other observations

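Lists not described above had no called member in the main effect. The 7 tested mast cell genes had a median log2 fold change of 1.34, all above 0, with 0.03 in the tumours with drug and 2.71 in those without it, and the score ranged from 0.95 to 2.82 in irradiated libraries and from -0.90 to 2.42 in unirradiated libraries. The 8 regulatory T cell genes had a median of 0.63, all above 0, and 5 of 8 irradiated libraries had a score above all unirradiated ones; Ctla4, a checkpoint receptor, was at 0.61 ± 0.27 (edgeR adjusted p = 0.448). The 12 dendritic cell genes had a median of 0.22, with Ccr7, which guides migration to lymph nodes, at 1.03 ± 0.31 (adjusted p = 0.14). The 9 tested B and plasma cell genes had a median of 0.33, the immune checkpoints 0.15 and the erythroid genes 0.28. Nerve and Schwann cell genes had a median of 0.25, cell death regulators -0.02, genes of the unfolded protein and stress responses -0.09, and collagen processing and cross-linking 0.13. The 6 tested genes of hair follicle and sebaceous gland had a median of 2.57, and -0.16 without the libraries with skin transcripts. Egln3, an oxygen sensor in the hypoxia list, was at 0.89 ± 0.24 (adjusted p = 0.103), where the list's median was -0.16.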
